A study of Homo sapiens with 12 samples.

Results

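The dystrophin complex and integrin α7 were followed as 10 genes, chosen by name from 19907 genes with a value in every library: DMD, UTRN, DAG1, SGCB, SGCE, SNTB1, SNTB2, DTNA, DTNB and ITGA7. All 10 were found, and all 10 passed the filter on low values (a normalized read count of at least 10 in at least 3 libraries), as did 15957 genes in all. The choice was made with results of these data known. Which values led to it is not recorded. The genotype contrast, where DMD and ITGA7 stand far apart, was taken as the one used. The differences of the members between genotypes are therefore given as a description with no test. SEs and intervals printed with them reflect the spread among libraries and do not account for the choice. If Dex values also led to the choice, the p-values of the members for Dex and for the difference of responses do not account for it.

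The cells were MDA-MB-231, an established human triple-negative breast cancer line. In the WT-GR groups the line expressed the wild-type glucocorticoid receptor, the nuclear receptor that cortisol and its synthetic agonist dexamethasone (Dex) activate. In the S134A-GR groups it expressed the S134A receptor, in which a serine is mutated to alanine. Every group was first serum starved for 18 h in medium with 1% DCC. The 4 groups were WT-GR and S134A-GR cells given vehicle, and WT-GR and S134A-GR cells given 1 µM Dex, each for 6 h and each with 3 libraries. The labels do not say how the receptor was brought into the cells, whether a genotype is 1 clone or a pool, or whether the libraries came from separate cultures. A difference between genotypes therefore cannot be told apart from a difference between 2 derived lines, and every p-value below reflects the variation among these libraries alone, which could be technical.

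Dystrophin, the product of DMD, is a long rod-shaped protein that ties the actin cytoskeleton to the cell membrane, and its loss causes Duchenne muscular dystrophy. Its paralogue utrophin (UTRN) does the same work in most cells outside muscle. At the membrane they bind dystroglycan (DAG1), whose sugar chains hold laminin outside the cell, and dystroglycan is flanked by sarcoglycans (SGCB and SGCE here). Inside, syntrophins (SNTB1, SNTB2) and dystrobrevins (DTNA, DTNB) dock signalling proteins on the complex. Integrin α7, paired with integrin β1, is a second laminin receptor of muscle that runs in parallel to the dystrophin complex.

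Recovered depth ran from 56.4 to 100.6 M reads a library (M, mega), and WT-GR vehicle 1 and WT-GR Dex 1 were the shallowest at 56.4 and 56.9 M. WT-GR Dex 2 and 3 had 17017 and 16997 genes above 0, the fewest of the 12 libraries, at 93.8 and 93.0 M reads. Leaving out both keeps only WT-GR Dex 1 in its group, so for that fit sizes of differences are given and no p-values. The Dex files carry shifted gene names, so every Dex value here was named by line order from the vehicle files. Around each of the 10 genes, windows of 200 lines in all 6 Dex libraries matched the vehicle values best with no shift (r across genes 0.976 to 0.991). TSC22D3, the classical glucocorticoid-induced gene, was at 3010 ± 132 in vehicle and 62230.4 ± 1070 in Dex in WT-GR cells, and at 2060 ± 162 and 40551 ± 258 in S134A-GR cells. The receptor gene NR3C1 stood at 11771 ± 1186 (vehicle) and 9389 ± 784 (Dex) in WT-GR cells and at 8815 ± 259 and 7784 ± 495 in S134A-GR cells. The gene-level count does not tell the mutant from the wild-type transcript. All values are normalized read counts, as mean ± SD with n = 3 where an error is given.

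Promoter sequence is shown for DMD, the member with the widest difference between genotypes, for its paralogue UTRN, and for DTNA, the member with the largest Dex response among those with an adjusted p under 0.05. RefSeq promoter windows (GRCh38) were at hand for 7 of the 10 members, 22 windows in all, and each was read over the 250 bases before the annotated start. The hexamer that 1 receptor molecule of the glucocorticoid receptor dimer contacts was searched as TGTTCT on both strands, which also finds AGAACA. The full palindrome was searched as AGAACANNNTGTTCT, which contains the hexamer on both strands. A hexamer was found in 3 of the 22 windows (13.6%), against 12.4% of all 35116 windows of that length in the table. The 3 windows lie at DMD, UTRN and DTNB, and none of the 7 DTNA windows held one. The full palindrome was in 0 of the 22 windows and in 1 of all 35116 (0.00285%). Below, capitals mark the hexamer, sequences read 5′ to 3′ along the gene's strand, and the DTNA window is the one whose start is nearest to the annotated 5′ end of the gene. For DMD and UTRN the window shown is instead the one that holds a hexamer, and it lies inside the annotated gene. Their windows nearest to the annotated 5′ end, chrX:33339389-33339638 for DMD and chr6:144285085-144285334 for UTRN, held no hexamer.
DMD, chrX:33211550-33211799, minus strand: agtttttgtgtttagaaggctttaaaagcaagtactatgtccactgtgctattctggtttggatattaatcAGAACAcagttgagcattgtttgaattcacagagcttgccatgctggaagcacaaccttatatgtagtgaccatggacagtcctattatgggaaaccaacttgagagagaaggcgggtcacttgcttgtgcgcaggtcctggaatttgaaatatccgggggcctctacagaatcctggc
UTRN, chr6:144582898-144583147, plus strand: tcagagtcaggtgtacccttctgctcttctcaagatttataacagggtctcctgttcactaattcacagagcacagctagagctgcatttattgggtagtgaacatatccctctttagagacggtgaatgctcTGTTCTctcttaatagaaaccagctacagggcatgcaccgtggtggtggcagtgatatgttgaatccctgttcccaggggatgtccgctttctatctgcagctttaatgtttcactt
DTNA, chr18:34493062-34493311, plus strand: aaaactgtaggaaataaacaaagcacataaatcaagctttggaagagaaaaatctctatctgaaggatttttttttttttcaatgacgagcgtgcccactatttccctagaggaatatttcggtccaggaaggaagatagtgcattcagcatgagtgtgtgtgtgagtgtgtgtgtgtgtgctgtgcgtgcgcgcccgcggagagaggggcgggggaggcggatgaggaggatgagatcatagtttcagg
The DMD hexamer begins 179 bases before the start and the UTRN one 117 bases before it. The DMD window is 44% GC and the DTNA window 46.4%, below the median of 58% over all windows. DMD and DTNA each have 7 windows in the table, and gene-level counts do not say which starts were used.

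DMD was nearly silent in WT-GR cells and well expressed in S134A-GR cells. The gene spans chrX:31097677-33339441 on the minus strand (GENCODE 29, GRCh38), with 18.9 kb of merged exon sequence in 94 blocks. Its normalized counts were 42.4, 67.6 and 54.8 in the WT-GR vehicle libraries and 23.9, 49.9 and 41.7 after Dex. In S134A-GR cells they were 2301, 2384 and 2383 in vehicle and 2233, 2206 and 2209 after Dex. Every S134A-GR library was above every WT-GR library, with a gap of more than an order of magnitude. In S134A-GR cells the mean was 42.9 times that of WT-GR cells in vehicle (2356 ± 47.9 against 54.9 ± 12.6) and 57.5 times in Dex (2216 ± 14.6 against 38.5 ± 13.3). On the log2 scale the difference was 5.42 ± 0.219 (SE) in vehicle and 5.87 ± 0.219 in Dex, the 4th and the 3rd highest of the 15957 genes tested. The WT-GR level rests on few reads, 26 to 64 a library in vehicle and 14 to 50 in Dex, against 2352 to 2675 and 2113 to 2521 in S134A-GR cells. DMD shares no exon bases with another annotated gene. Over 22 alternative settings of the same values the difference ran from 5.14 to 5.58 in vehicle and from 5.56 to 6.48 in Dex.

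UTRN, at chr6:144285701-144853034 on the plus strand, had the higher read count of the 2 paralogues in every group. Its libraries read 9999.6, 6999 and 5484 in WT-GR vehicle and 8727, 5853 and 9289.5 after Dex. S134A-GR cells gave 5047, 4751 and 5758 in vehicle and 6182, 5506 and 5531 in Dex. The WT-GR libraries were spread widely, and in both treatments the lowest WT-GR library fell inside the range of the S134A-GR libraries. The mean was lower in S134A-GR cells by 0.49 ± 0.191 on the log2 scale in vehicle and by 0.44 ± 0.191 in Dex. Per kilobase of merged exon, UTRN stood at 513 ± 157 against 2.90 ± 0.668 for DMD in WT-GR vehicle, and at 355 ± 35.4 against 125 ± 2.53 in S134A-GR vehicle. Without WT-GR vehicle 1 the log2 difference of UTRN in vehicle was -0.26.

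The spread of UTRN within groups moved with that of other genes with long exon sequence. For the 1666 tested genes with at least 10 kb of merged exon, the median deviation from the group mean (log2) was 0.087, 0.003 and -0.094 in WT-GR vehicle 1, 2 and 3, where UTRN deviated by 0.460, -0.054 and -0.406. In WT-GR Dex 1, 2 and 3 the median was 0.004, -0.060 and 0.079, and UTRN deviated by 0.162, -0.414 and 0.252. The libraries low for long genes were low for UTRN, and those high for them were high. DMD, a longer gene, did not follow: it deviated by -0.342, 0.321 and 0.021 in WT-GR vehicle and by -0.603, 0.429 and 0.175 in WT-GR Dex. The part of the long-gene shift in the UTRN values was not tested.

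**Figure D1:**
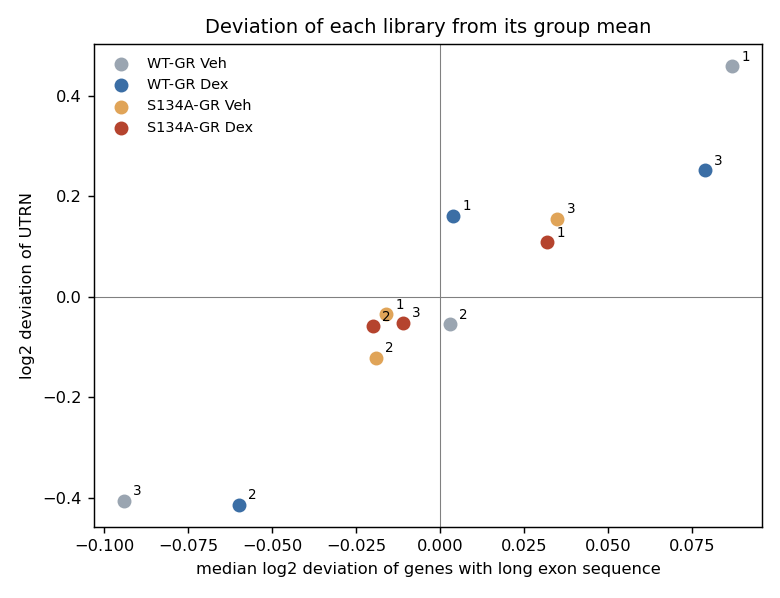
Each point is 1 library, numbered by replicate and coloured by group. The horizontal axis gives the median log2 deviation from the group mean over 1666 genes with at least 10 kb of exon sequence, and the vertical axis the log2 deviation of UTRN. WT-GR vehicle 1 (0.087, 0.460) and WT-GR vehicle 3 (-0.094, -0.406) lie at opposite corners.

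Dystroglycan and the sarcoglycans were expressed in all groups and differed between genotypes by less than a factor of 2, in both directions. In WT-GR cells DAG1 (chr3:49468703-49535618, plus strand) read 38273, 36424 and 34671 in vehicle and 38856, 33873 and 34185 in Dex. In S134A-GR cells it read 28669, 29224 and 29095 in vehicle and 26413, 27902 and 27733 in Dex. All S134A-GR libraries were below all WT-GR libraries, and the log2 difference was -0.33 ± 0.054 in vehicle and -0.38 ± 0.054 in Dex. SGCB (chr4:52020706-52038482, minus strand), the β-sarcoglycan subunit, went the other way. It read 7888, 7899 and 7658 in WT-GR vehicle and 9289, 9552 and 9289 in S134A-GR vehicle. After Dex the values were 6632, 6839 and 7872 in WT-GR cells and 10121, 9461 and 9503 in S134A-GR cells. SGCB groups of the 2 genotypes did not overlap, at 0.26 ± 0.058 in vehicle and 0.45 ± 0.058 in Dex.

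SGCE (chr7:94524204-94656572, minus strand) encodes ε-sarcoglycan, the form found widely outside muscle, and is an imprinted gene. WT-GR libraries read 3981, 4178 and 4295 in vehicle and 3858, 4498 and 4203 in Dex. The S134A-GR libraries read 2686, 2893 and 2748 in vehicle and 2831, 3035 and 2834 in Dex, all below the lowest WT-GR library. The log2 difference was -0.58 ± 0.062 in vehicle and -0.53 ± 0.062 in Dex. Its exons overlap 219 bases of PEG10 on the other strand, and PEG10 was lower in S134A-GR cells too (15066 ± 2160 against 8906 ± 216 in vehicle). Strand use in counting is not given in the sources used here, so reads from the shared bases cannot be assigned, and their part in the SGCE values was not tested.

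Among the cytoplasmic members, SNTB1 was lower in S134A-GR cells, DTNA was higher, and SNTB2 and DTNB were close between genotypes. SNTB1, β1-syntrophin (chr8:120535745-120813273, minus strand), read 5419, 5369 and 4895 in WT-GR vehicle and 4531, 4570 and 4774 after Dex. The mutant cells read 4274.5, 4342 and 4134 in vehicle and 3386, 3504 and 3493 in Dex. Its genotypes did not overlap within a treatment, with log2 differences of -0.30 ± 0.050 in vehicle and -0.42 ± 0.050 in Dex. SNTB1 shares 297 exon bases with MTBP on the other strand, which stood at 2331 ± 24.9 in WT-GR vehicle and 2286 ± 93.7 in S134A-GR vehicle. SNTB2, β2-syntrophin (chr16:69187129-69309052, plus strand), read 6289.5, 5450.3 and 4813 in WT-GR vehicle and 4160.4, 4119.6 and 5542 after Dex. In S134A-GR cells SNTB2 read 5739, 5459.8 and 5956 in vehicle and 5065, 4734 and 4767 in Dex, within the WT-GR range in each treatment. The log2 difference between genotypes was 0.06 in vehicle (95% interval -0.17 to 0.29) and 0.09 in Dex (-0.14 to 0.32).

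α-Dystrobrevin, from DTNA (chr18:34493290-34891844, plus strand), was measured at 2014, 1824 and 1895 in WT-GR vehicle and at 1202, 1239.8 and 1397 after Dex. The S134A-GR libraries had 2335, 2192 and 2421 in vehicle and 1623, 1561 and 1346 in Dex. Genotypes did not overlap in vehicle (log2 difference 0.28 ± 0.082), and in Dex the lowest S134A-GR library fell inside the WT-GR range (0.24 ± 0.082). β-Dystrobrevin, from DTNB (chr2:25377198-25673647, minus strand), was the steadiest member. Its 12 libraries ran from 798 to 960.0, and the genotypes overlapped in both treatments (0.05, interval -0.13 to 0.22, and 0.03, interval -0.15 to 0.20).

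ITGA7 (chr12:55684568-55716043, minus strand) was the second member with a wide difference between genotypes. Its counts were 112, 86.7 and 115 in WT-GR vehicle and 123, 84.9 and 109.8 after Dex. S134A-GR cells gave 769, 659 and 792 in vehicle and 539, 575 and 563 in Dex. The S134A-GR libraries were all higher, by 7.07 times on the mean in vehicle (740.0 ± 71.2 against 104.6 ± 15.6) and 5.28 times in Dex (559 ± 18.4 against 105.9 ± 19.3). The log2 differences of 2.82 ± 0.154 and 2.41 ± 0.154 ranked 27th and 126th highest of the 15957 genes. Over the 22 alternatives the ITGA7 difference ran from 2.69 to 3.07 in vehicle and from 2.18 to 2.57 in Dex. Its exons share 44 bases with METTL7B and 7 with BLOC1S1 on the other strand. METTL7B stood at 399 ± 20.7 (vehicle) and 255 ± 41.97 (Dex) in WT-GR cells and at 603 ± 43.6 and 395 ± 34.7 in S134A-GR cells, and the part of the shared bases in the ITGA7 values was not tested.

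**Figure D2:**
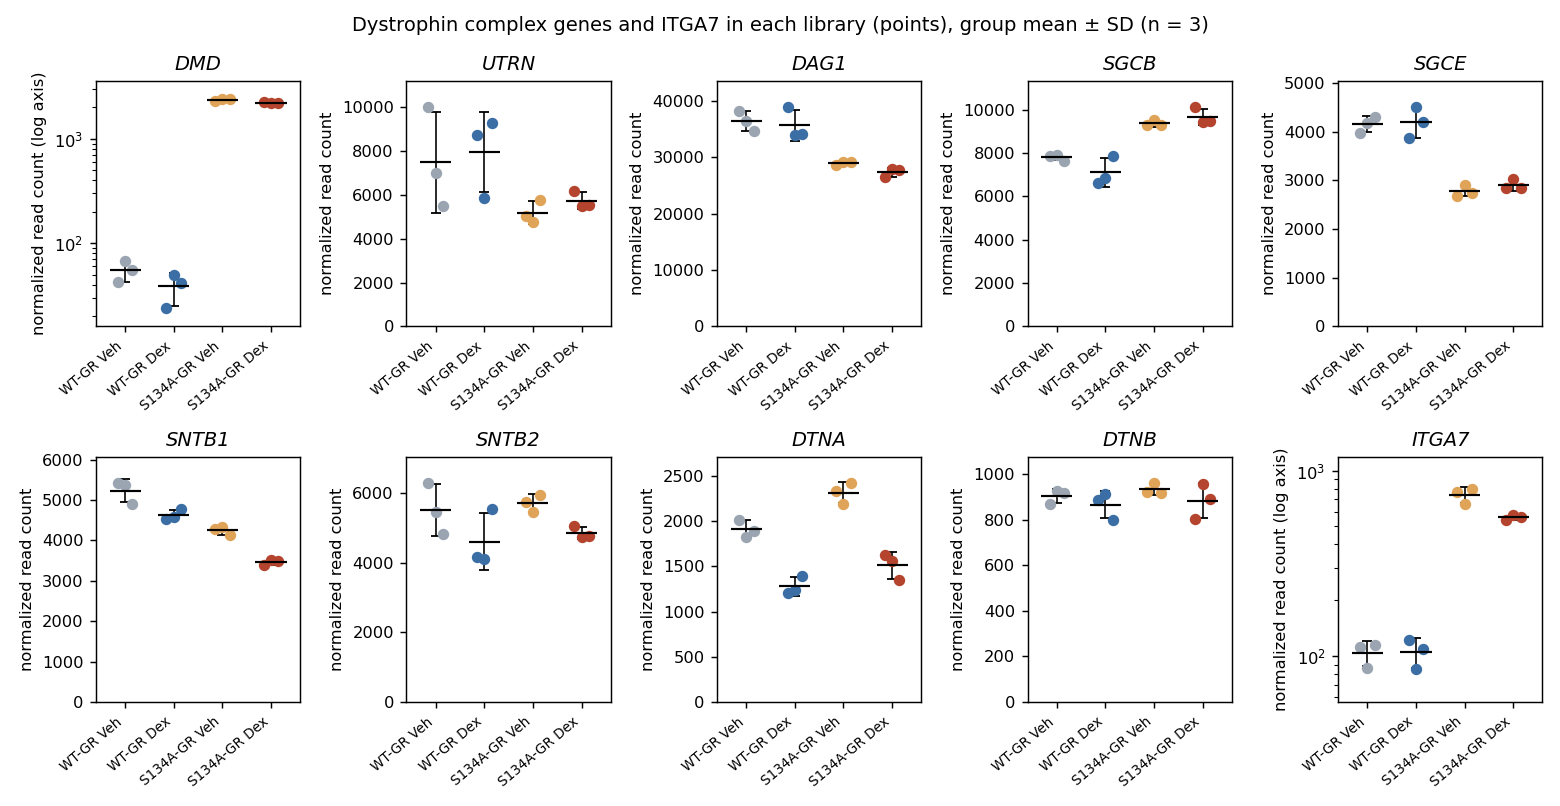
Normalized read count of each gene in each library (points, 3 per group), with the group mean (bar) and SD (whisker). DMD and ITGA7 are on log axes and the others on linear axes from 0. DMD sits at 23.9 to 67.6 in WT-GR cells and at 2206 to 2384 in S134A-GR cells.

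The 2 genotypes did not overlap for 7 members in vehicle and 6 in Dex, against 64.3% and 52.4% of all genes. In vehicle these were DMD, ITGA7, SGCB and DTNA, all higher in S134A-GR cells, and DAG1, SGCE and SNTB1, all lower. In Dex they were the same genes without DTNA. These counts are a description, since the choice of members may rest on this contrast, and nothing is read from them.

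**Figure D3:**
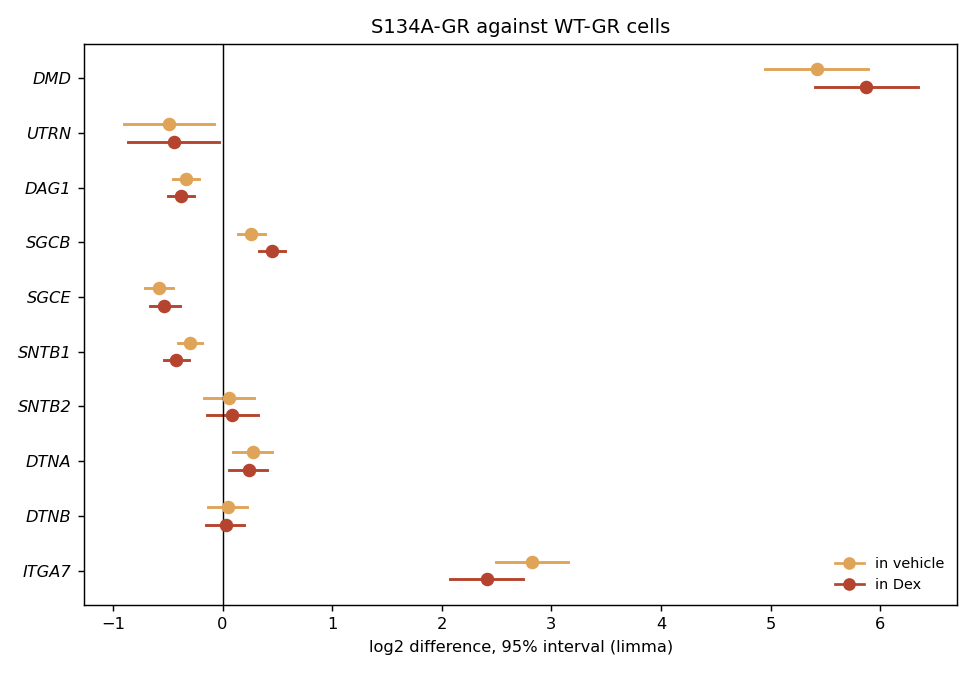
Points give the log2 difference between S134A-GR and WT-GR cells for each member, in vehicle (upper) and Dex (lower), and lines the 95% interval from limma. The intervals do not account for the choice of members and are not read as a test. No test is marked. DMD (5.42 and 5.87) and ITGA7 (2.82 and 2.41) lie apart from the other 8, which stay between -0.58 and 0.45.

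Levels between genes can be compared only roughly, per kilobase of merged exon sequence. Merged exons join all annotated transcripts of a gene and can be longer than the transcripts present. SGCE has 20.9 kb of merged exon and DMD 18.9 kb, and which transcripts were used was not measured, so the order below is approximate. On that scale DAG1 was first in every group (5266 ± 260.2 in WT-GR vehicle, 4188 ± 41.98 in S134A-GR vehicle), followed by SGCB (1721 ± 29.95 and 2065 ± 33.5) and SNTB1 (761 ± 42.1 and 619 ± 15.5). In WT-GR vehicle the order went on with SNTB2, UTRN, SGCE, DTNA, DTNB, ITGA7 and DMD, and only SNTB2 and UTRN overlapped among neighbours. DMD was last in both WT-GR groups, at 2.90 ± 0.668 in vehicle. In S134A-GR vehicle the order below SNTB1 was SNTB2, UTRN, DTNA, SGCE, DTNB, DMD and ITGA7. There DMD (125 ± 2.53) and ITGA7 (116 ± 11.2) overlapped each other, as did SGCE (133 ± 5.08) and DTNB (130.4 ± 3.41), and SNTB1 with SNTB2 (579 ± 25.2).

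Dex lowered DTNA and SNTB1 in both genotypes, and no member rose past the threshold, an adjusted p under 0.05 (limma, Benjamini-Hochberg over all genes tested). In WT-GR cells 2 of 10 members were past it, both lower, where 27.9% of all genes were (14.0% lower), and in S134A-GR cells the same 2 of 10, where 15.7% were (7.76% lower). The choice of members may also rest on Dex values, which the p-values do not account for. DTNA fell by 0.58 ± 0.082 on the log2 scale in WT-GR cells (33.0% lower, adjusted p = 0.000161, limma) and by 0.62 ± 0.082 in S134A-GR cells (34.8% lower, adjusted p = 9.1e-05). All 6 Dex libraries were below all 6 vehicle libraries of DTNA, and the call held in all 22 alternatives in both genotypes. SNTB1 fell by 0.18 ± 0.050 in WT-GR cells (adjusted p = 0.0189, limma) and by 0.30 ± 0.050 in S134A-GR cells (adjusted p = 0.000769). Dex and vehicle did not overlap for SNTB1 in either genotype. Its call in WT-GR cells was lost without WT-GR vehicle 1 (adjusted p = 0.0767), without WT-GR vehicle 2 (0.0825), without WT-GR Dex 2 (0.0524) and in a fit of the WT-GR groups alone (0.100), while in S134A-GR cells it held in all 22. MTBP, which shares exon bases with SNTB1, stood at 1618 ± 217 after Dex in WT-GR cells and at 1867 ± 232 in S134A-GR cells, below its vehicle levels, and its part in the SNTB1 values was not tested.

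The other 8 members did not pass the threshold for Dex. SNTB2, the second syntrophin, had log2 differences of -0.27 in WT-GR cells (interval -0.50 to -0.03, adjusted p = 0.0842, limma) and -0.24 in S134A-GR cells (-0.47 to 0.00, adjusted p = 0.189). In S134A-GR cells it passed, at about the same size, in a fit of the S134A-GR groups alone (adjusted p = 0.0113, limma), without WT-GR Dex 3 (0.0495) and under library weights (0.00168). In WT-GR cells 2 of its Dex libraries were below all vehicle libraries and WT-GR Dex 3 was not. Without that library the WT-GR difference was -0.41 (adjusted p = 0.00304, limma), and without WT-GR Dex 2 and 3 it was -0.40. SNTB2 also passed in WT-GR cells without WT-GR vehicle 3 (-0.36, adjusted p = 0.0297, limma) and with library weights (-0.34, adjusted p = 0.00179, limma). In edgeR with library size only it passed at -0.32 (adjusted p = 0.0437). ITGA7 had a difference of 0.01 in WT-GR cells (interval -0.32 to 0.34) and of -0.40 in S134A-GR cells (-0.73 to -0.07, adjusted p = 0.107, limma). In S134A-GR cells all 3 Dex libraries of ITGA7, at 539 to 575, were below all 3 vehicle libraries, at 659 to 792. For S134A-GR cells ITGA7 passed in some alternatives. A fit of the S134A-GR groups alone gave an adjusted p of 0.0201 and library weights gave 0.0133 (limma), at the same size. DESeq2 gave 0.00932 at that size, and edgeR with library size only gave -0.43 (adjusted p = 0.0369). Without WT-GR Dex 2 and 3 the ITGA7 difference in S134A-GR cells was -0.40. The spread of ITGA7 in the joint fit includes the WT-GR libraries, which rest on 69 to 109 reads.

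DMD had a Dex difference of -0.54 in WT-GR cells (interval -1.01 to -0.07, adjusted p = 0.0827, limma), where vehicle and Dex libraries overlapped. It passed (limma) with library weights (-0.63, adjusted p = 0.0125), without WT-GR vehicle 1 (-0.71, adjusted p = 0.0442) and without WT-GR Dex 2 (-0.75, adjusted p = 0.0222). The alternatives ran from -1.14 to -0.24. The value of -1.14 came without WT-GR Dex 2 and 3, and for Dex it rests on the 14 reads of WT-GR Dex 1. In S134A-GR cells, with 2113 to 2675 reads a library, the DMD difference was -0.09 (-0.56 to 0.38, adjusted p = 0.877, limma), and all Dex libraries were below all vehicle libraries. The spread of DMD in the joint fit includes the WT-GR libraries, which rest on 14 to 64 reads. The SD of its log2 values was 0.332 and 0.538 in WT-GR vehicle and Dex. It was 0.029 and 0.010 in S134A-GR vehicle and Dex, so the interval is wide for the S134A-GR libraries. UTRN (0.10 and 0.15 in WT-GR and S134A-GR cells), DAG1 (-0.03 and -0.08), SGCE (0.01 and 0.06) and DTNB (-0.06 and -0.08) had adjusted p-values from 0.383 to 0.921 (limma). SGCB was at -0.14 in WT-GR cells (adjusted p = 0.0880, limma) and at 0.05 in S134A-GR cells (0.703). In WT-GR cells SGCB passed without WT-GR Dex 3 (-0.21, adjusted p = 0.00223, limma) and with library weights (-0.19, adjusted p = 0.00185, limma). It also passed in edgeR with library size only (-0.20, adjusted p = 0.034). Without WT-GR Dex 2 and 3 the SGCB difference was -0.24. Dex and vehicle did not overlap for 2 members in WT-GR cells (35.1% of all genes) and for 6 in S134A-GR cells (38.6%), all lower in Dex.

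**Figure D4:**
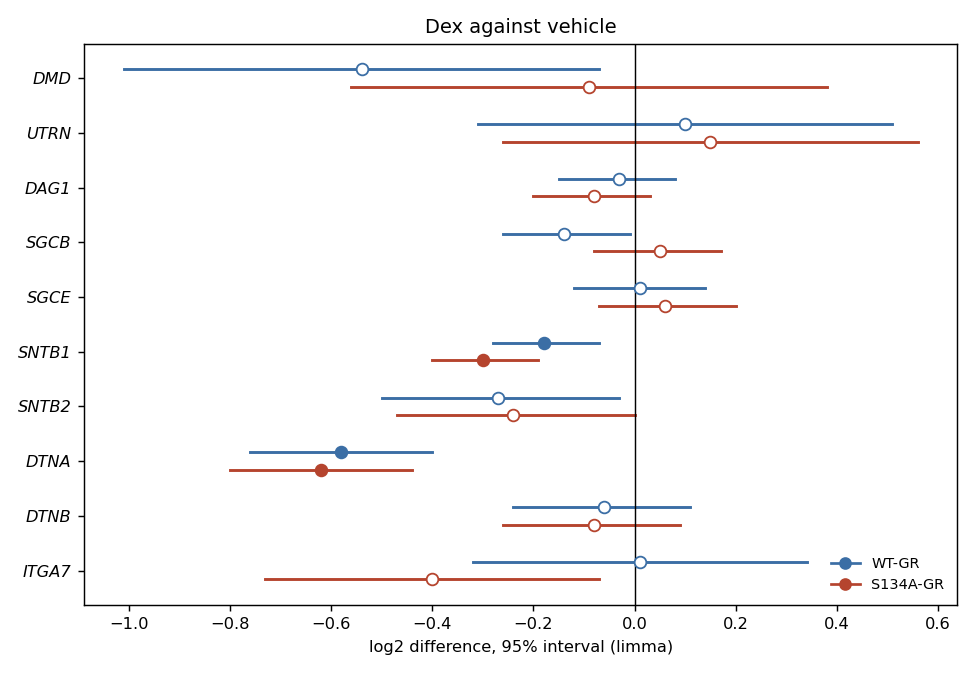
Points give the log2 difference between Dex and vehicle for each member in WT-GR (upper) and S134A-GR cells (lower), with the 95% interval from limma. Filled points are past an adjusted p of 0.05. DTNA (-0.58 and -0.62) and SNTB1 (-0.18 and -0.30) are the filled ones in both genotypes.

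No member differed between genotypes in its Dex response at an adjusted p under 0.05, where 0.414% of all genes did (66 genes, limma). One had an unadjusted p under 0.05, SGCB, at 0.19 on the log2 scale (S134A-GR response minus WT-GR response, adjusted p = 0.266), and edgeR with TMM and DESeq2 called 0 members. With all libraries kept, SGCB passed with library weights (0.22, adjusted p = 0.014, limma). It also passed without WT-GR Dex 3 (0.26, adjusted p = 0.0284, limma). Without WT-GR Dex 2 and 3 the difference of responses was 0.28 for SGCB and 1.05 for DMD. The difference of responses was -0.04 for DTNA (interval -0.29 to 0.21), -0.12 for SNTB1 (-0.27 to 0.03) and -0.41 for ITGA7 (-0.88 to 0.06, adjusted p = 0.34).

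The partners of the complex were read from a list of 53 genes, set down by textbook role with earlier results known. Of these 50 were found and 44 passed the filter on low values. Between genotypes in vehicle 26 of 44 were past the threshold (14 higher and 12 lower in S134A-GR cells, median log2 difference -0.01 against 0.01 over all genes), and in Dex 28 of 44 (14 higher and 14 lower, median 0.05 against 0.01). By role in vehicle, 10 of 17 genes of dystroglycan glycosylation were past it, 7 of 11 extracellular ligands, 5 of 8 cytoplasmic partners, 3 of 5 laminin receptor partners and 1 of 3 other complex members. Over all genes 50.5% were past it in vehicle (23.8% higher, 26.7% lower) and 49.7% in Dex (23.4% higher, 26.3% lower). As the list was set down with results known, these partner counts are a description too, and nothing is read from them.

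Apart from BGN, which was barely detected, LAMA1 and LAMA4 lay farthest apart of the partners past the threshold in vehicle. LAMA1, the laminin α1 chain, read 158, 172 and 136 in WT-GR vehicle and 590.0, 565 and 703 in S134A-GR vehicle, with no overlap. The LAMA1 log2 difference was 1.99 ± 0.117 in vehicle and 1.55 ± 0.117 in Dex. LAMA4, the laminin α4 chain, went the other way, at 267, 296 and 239 against 65.0, 100.4 and 60.6 (-1.85 ± 0.249), and at -1.74 ± 0.249 in Dex. ITGB4, the β4 integrin that pairs with α6 in hemidesmosomes, was at 9536 ± 636 in WT-GR and 5077 ± 167 in S134A-GR vehicle (-0.91 ± 0.079), and at -1.27 ± 0.079 in Dex. Agrin, a heparan sulphate proteoglycan that binds dystroglycan, was lower in S134A-GR Dex than in WT-GR Dex (AGRN, -0.77 ± 0.073). AGRN was lower in vehicle too, at 33069.1 ± 451.1 in S134A-GR and 47722.5 ± 1281.1 in WT-GR cells. BGN, biglycan, ran from 9.51 to 21.1 in WT-GR vehicle and from 0 to 5.35 in S134A-GR vehicle. It passed the threshold in vehicle, but at this level its log2 difference depends on the pseudocount and no fold is given.

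**Figure D5:**
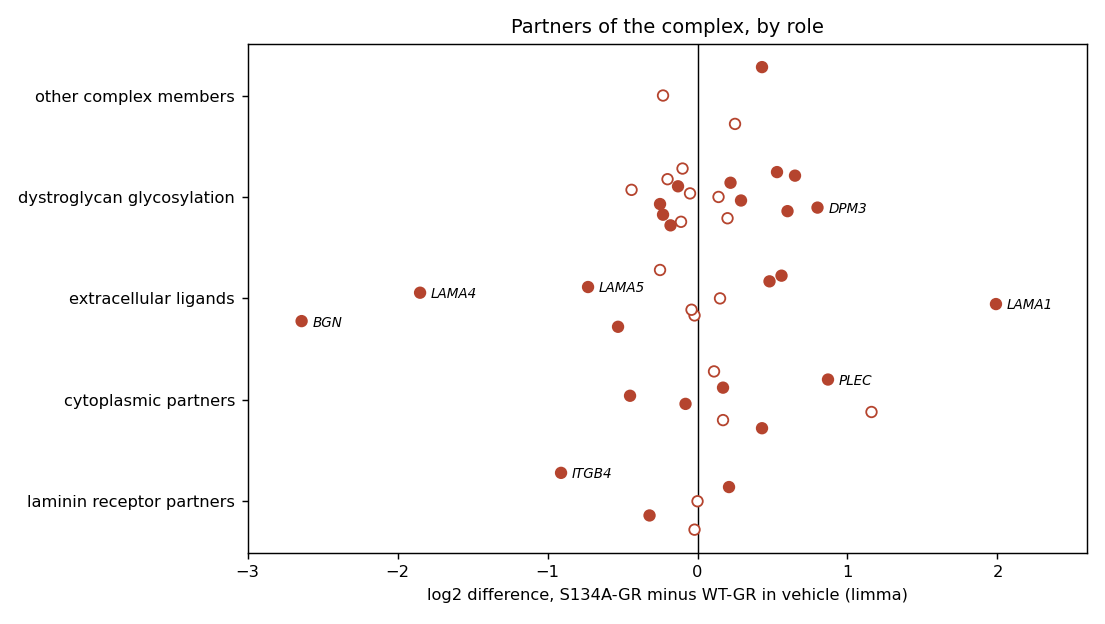
Each point is 1 of 44 partner genes, placed by role, with the log2 difference between S134A-GR and WT-GR cells in vehicle on the horizontal axis. Filled points are past an adjusted p of 0.05 (limma), and those with a difference of at least 0.7 are named. LAMA1 (1.99) lies farthest to the right and LAMA4 (-1.85) far to the left, beside the barely detected BGN, whose place depends on the pseudocount.

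For Dex, 8 of the 44 partners were past the threshold in WT-GR cells, where 27.9% of all genes were (4 higher, 4 lower, median 0.02 against -0.02 over all genes). In S134A-GR cells 4 of the 44 were, where 15.7% of all genes were (all 4 lower, median -0.03 against -0.02). Among those in WT-GR cells were LAMA1 (0.57, adjusted p = 0.0031, limma), sarcospan (SSPN, -0.48, adjusted p = 0.0202) and synemin (SYNM, -0.35, adjusted p = 0.00796), an intermediate filament protein that binds dystrobrevin. In S134A-GR cells they were SYNM (-0.33, adjusted p = 0.0170, limma), AGRN (-0.29, adjusted p = 0.0148), ITGA3 (-0.23, adjusted p = 0.0147) and GRB2 (-0.10, adjusted p = 0.0485). SYNM fell in both genotypes, as its partner DTNA did. Without WT-GR Dex 2 and 3 the SYNM difference in WT-GR cells was -0.33. Of these named calls only LAMA1 held in all 22 alternatives: SSPN was lost in 4 and SYNM in 1 for WT-GR cells, and SYNM in 2, AGRN in 3, ITGA3 in 3 and GRB2 in 13 for S134A-GR cells. None of the 44 passed for the difference of responses (0 genes, limma), 10 had an unadjusted p under 0.05, and edgeR with TMM called 0 and DESeq2 1. Without WT-GR Dex 2 and 3 the SSPN difference in WT-GR cells was -0.82. Without WT-GR Dex 3, 16 of the 44 partners were past the threshold for Dex in WT-GR cells, and 5 for the difference of responses.

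The genes most like DMD over the 12 libraries, by Pearson correlation of log2 values among 12484 genes with a mean of at least 100, were NOV (r = 0.998), LOC100288152 (0.996), RBFOX3 (0.995), LINC01234 (0.995) and SEL1L3 (0.993). NOV, a secreted matricellular protein, averaged 2001 in WT-GR vehicle and 4397 in S134A-GR vehicle, a far smaller ratio than that of DMD. For ITGA7 they were TMEM8B (r = 0.996), TIMELESS (0.994), TCTN1 (0.991), GPX3 (0.990) and PRMT7 (0.990). These correlations are a description: all genes share the same 12 libraries, and the 2 genotypes make up most of their spread.

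Because dystrophin and integrin α7 are typical of muscle and nerve sheath, marker genes of other cells were read in the same libraries. The markers set down for the line itself were all high, with VIM, CD44, AXL, KRT18 and CAV1 summing to 604642 to 700863 a library. Of the markers set down as low in it, ESR1 was at 0 to 5.66 and CDH1 at 0 to 17.1, but EPCAM, an epithelial adhesion molecule, was at 1024 ± 64.6 in WT-GR vehicle and 378 ± 51.8 in S134A-GR vehicle. Of 7 skeletal muscle markers 4 were found, and their sum ran from 12192 to 13022 in WT-GR vehicle and from 13803 to 14848 in S134A-GR vehicle, nearly all of it TNNT1. DES, the muscle intermediate filament gene, was at 72.1 ± 2.47 in WT-GR vehicle and 31.5 ± 11.5 in S134A-GR vehicle. The 2 smooth muscle markers found of 3 summed to 96.9 to 106 in WT-GR vehicle and to 178 to 184.5 in S134A-GR vehicle. Among them ACTA2, smooth muscle actin, was at 62.8 ± 9.54 and 113 ± 17.8, and CNN1, calponin, at 37.6 ± 4.78 and 68.2 ± 14.7. The 2 blood markers found of 4 summed to 27923 to 28232 in WT-GR vehicle and to 40571 to 42862 in S134A-GR vehicle. Nearly all of it was CD68, a lysosomal protein of macrophages, and the other blood marker found was barely detected. The 4 Schwann cell and nerve markers summed to 95.1 to 101 in WT-GR vehicle and to 233 to 245 in S134A-GR vehicle. Among them SOX10, a transcription factor of the glial lineage, was at 0 in all WT-GR vehicle libraries. In S134A-GR vehicle SOX10 ran from 1.78 to 5.66. The part of these markers, which move with genotype, in the DMD and ITGA7 values was not tested. In bulk RNA fewer cells of a type and less RNA per cell cannot be told apart, so the share of cells that carry DMD or ITGA7 transcripts was not measured.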

How the data were processed

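RNA of 12 MDA-MB-231 cell line libraries was sequenced as 75-base pairs. The submitters' processing notes name DESeq2 1.22.2, FastQC 0.11.7, Subread, featureCounts and build hg38. Aligner, annotation and strand setting: not given in the sources used here. The authors deposited 1 normalized signal value per gene and library, reads scaled by a size factor of the library. Whole reads were recovered from its steps (100% of values within 0.01 reads), 56.4 to 100.6 M a library. Among recovered counts from 1 to 20, even values made up 58.2 to 67.5% in each library, more than odd ones. Where both mates of a pair were counted, independent fragments are fewer, also for the few reads of DMD and ITGA7 in WT-GR cells. How often both mates were counted was not tested.

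Dex values took the vehicle files' gene names by line order (r with vehicle across genes 0.9816 to 0.9886, against about 0 by deposited name). limma 3.58.1 with a trend (R 4.3.3) was fitted to log2(value + 1) of all 12 libraries, 1 coefficient per group. Fold changes on this scale understate low genes. Two-sided p-values were adjusted (Benjamini-Hochberg) over 15957 genes. edgeR 4.0.16 and DESeq2 1.42.0 on recovered reads were alternatives, beside pseudocount, filter, weights, block, fewer groups and left-out libraries. The scripts' tests were tested on simulated data. Positions and exon lengths are from GENCODE 29. Replicate pairs differed beyond counting noise (chi-square per degree of freedom 7.65 to 46.2).

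The members and lists were chosen with earlier results of these data known. Named were all members, up to 4 partners per comparison past the threshold with the largest log2 difference, and the 5 genes most like DMD and ITGA7. Of the genes this rule names or the marker lists hold, some are not reported here.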

Additional observations from a re-analysis of the deposited data

How the results depend on the processing

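Across 22 alternatives (21 for the difference of responses), DMD and ITGA7 kept the sign of their genotype difference and DTNA its Dex calls. Counts from the fit without WT-GR Dex 2 and 3 are not given, as it keeps only WT-GR Dex 1 in that group. The member count for Dex in WT-GR cells, 2, became 4 with library size only, 1 in a fit of only the groups compared and 5 with library weights. It became 1 to 4 leaving out single libraries (1 without WT-GR vehicle 2, 4 without WT-GR Dex 3). In S134A-GR cells it became 4 with only the groups compared and 4 with weights (2 to 3 leaving out 1 library). For the difference of responses it became 1 with weights and 0 to 1 leaving out 1. The partner count for Dex in WT-GR cells, 8, became 3 with only the groups compared, 18 with weights, 13 without WT-GR Dex 2 and 3, and 3 to 16 leaving out 1 (4, 3 and 5 without WT-GR vehicle 1, WT-GR vehicle 2 and WT-GR Dex 1). In S134A-GR cells, 4 partners became 8 with only the groups compared and 11 with weights. Leaving out 1 library gave 1 to 6 (2, 1 and 1 without S134A-GR vehicle 1, 2 and 3, 1 without S134A-GR Dex 1). For the difference, 0 became 1 with DESeq2, 7 with weights, 10 without WT-GR Dex 2 and 3, and 0 to 5 leaving out 1. The cause of these changes was not tested.

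Over all genes, Dex calls in WT-GR cells were 2490 with only the groups compared, 7113 with weights and 2963 without WT-GR vehicle 2, against 4455. S134A-GR Dex calls were 5116 with weights, against 2513. The difference of responses had 506 with DESeq2, 2854 with weights, 25 with the replicate block and 26 to 1604 leaving out 1, against 66. Same-number correlations of deviations between groups were weak (-0.085 to 0.055). The own number was the best match for 3 of 3 libraries between S134A-GR vehicle and Dex, and for 2 of 3 between WT-GR vehicle and Dex. Between genotypes it was the best match for 0 or 1 of 3. The replicate block left the members at 2, 2 and 0 calls (Dex in WT-GR cells, Dex in S134A-GR cells, difference of responses) and the partners at 5, 3 and 0.

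In 41 cases a value changed sign, none of them past the threshold in either setting. For Dex in WT-GR cells they were UTRN (-0.06 with weights, -0.10 to 0.33 leaving out 1), DAG1 (0.09 without WT-GR Dex 2 and 3, -0.10 to 0.00), SGCE (-0.05 with library size only, -0.10 without WT-GR Dex 2 and 3, -0.04 to 0.07) and ITGA7 (-0.05 with library size only, -0.12 to 0.16). For the difference of responses they were UTRN (-0.11 without WT-GR Dex 2 and 3, -0.18 to 0.25 leaving out 1), DAG1 (0.00 with weights, -0.09 to 0.01), SGCE (-0.00 to 0.11), SNTB2 (-0.07 to 0.17), DTNA (0.05 without WT-GR Dex 2 and 3, -0.09 to 0.04) and DTNB (0.02 with library size only, 0.02 with weights, -0.08 to 0.05). For genotype they were SNTB2 in vehicle (-0.03 to 0.16) and DTNB in Dex (-0.01 without WT-GR Dex 2 and 3, -0.03 to 0.10). Library size only moved the median of all genes by 0.104 for genotype in Dex.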
